A study of Mus musculus with 8 samples.

Results

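Perilipins and the other proteins that build and coat the lipid droplet were described through 10 genes, Plin1, Plin2, Plin3, Plin4, Plin5, Cidea, Cidec, Bscl2, Fitm2 and Hilpda, of the 43629 genes in the deposited count file. The genes were listed by name as droplet coat and droplet formation genes, and each of the 10 was found in the file. Messenger RNA had been sequenced from 3T3-L1 adipocytes, fat cells made in culture from a mouse preadipocyte line, in 4 groups of 2 libraries each. All 4 groups had been differentiated with insulin, dexamethasone, isobutylmethylxanthine and rosiglitazone, an agonist of the nuclear receptor PPARγ, and were treated from day 8 of differentiation for 24 h. One group was left untreated, one received A66, an inhibitor of the p110α catalytic subunit of PI 3-kinase, at 2 µM, one received palmitate at 0.5 mM bound to bovine serum albumin, and one received palmitate plus A66. The labels name neither a solvent control nor an albumin control, so that palmitate and its carrier, or A66 and its solvent, cannot be told apart here. The dose and the untreated control are those of the labels, while the methods of the study name a DMSO vehicle and a lower dose. Groups were taken from the treatment field of the labels, and every direction below rests on that field.

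A lipid droplet is a core of triglyceride and cholesteryl ester under a single layer of phospholipid, and it grows out of the endoplasmic reticulum. Perilipins are the proteins that coat this surface. Plin1, the main coat of adipocyte droplets, holds back lipolysis until it is phosphorylated, Plin2 and Plin3 are made in most tissues, Plin4 is abundant in white fat, and Plin5 is found mainly in oxidative tissues. Cidea and Cidec sit at contacts between droplets and let lipid pass into the larger of them, Bscl2 encodes seipin, which shapes the site where a droplet forms, and Fitm2 is an endoplasmic reticulum protein needed for droplets to bud. Hilpda, a small droplet protein induced by hypoxia and by fatty acids, inhibits the lipase ATGL. Several of these genes, Plin1, Plin2, Plin4 and Cidec among them, are known targets of PPARγ or other PPARs.

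The libraries held between 42247091 and 57529803 counts, and the detection floor was set at 3 counts, between 0.0519 and 0.0707 CPM (counts scaled by the library total and the TMM factor of edgeR). Replicates spread wider than counting alone would have them, the mean chi-square of a gene being 6.15 to 8.99 in place of 1. The labels do not say whether replicates were separate cultures, whereas the methods call them biological repeats, so that p-values measure the spread between these libraries. Adipocyte markers were abundant in every library, with Adipoq between 2049 and 2547 CPM and Fabp4 between 2639 and 3054 CPM. Of the markers of other cells, the muscle genes Myod1 and Ckm, the macrophage gene Adgre1, the preadipocyte gene Dlk1 and the brown fat gene Ucp1 had no count in any library, which allows at most the 3 counts given above. Other genes on these lists were well detected in every library, such as the fibroblast genes Col1a1 (576 to 773 CPM), Pdgfrb (191 to 219) and Acta2 (158 to 248), the muscle gene Des (40.7 to 50.4) and Ppargc1a (55.4 to 63.8).

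Per kilobase of exon, the order of the droplet genes in untreated cells was Cidec, at 394 CPM per kb ± 2.64 (SD, n = 2), then Plin4 at 283 ± 7.38, Plin1 at 101 ± 1.00, Plin2 at 61.9 ± 3.43, Fitm2 at 58.3 ± 0.28, Plin3 at 19.2 ± 0.73, Hilpda at 7.99 ± 0.53 and Bscl2 at 2.28 ± 0.12. Plin2 and Fitm2 were the pair of neighbours in this order that lay within about 1 SD of each other. With palmitate plus A66 the order was the same, and Plin2, at 76.8 CPM per kb ± 2.28, stood clear of Fitm2, at 48.5 ± 1.19. Lengths are those of all annotated exons of a gene joined, so that the level per kilobase of a gene with several transcripts, such as Bscl2, is a low estimate.

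Promoter sequences are shown for Plin2 and Plin4, because these perilipins moved in opposite directions in the measurements. The 250 bases before the RefSeq transcription start were read from GRCm38.p6, 5′ to 3′ on the strand of the gene, at chr4:86670060-86670309 (minus strand) for Plin2 and chr17:56109783-56110032 (minus strand) for Plin4. In the annotation used for positions, GENCODE M21, the Plin4 gene reaches to base 56109803, so that the end of its window lies inside the annotated gene. Capitals mark matches to AGGTCA, the hexamer bound by PPARs and other nuclear receptors, and to CCAAT, the box bound by NF-Y, on either strand (TGACCT and ATTGG are the same motifs read on the other strand).
Plin2: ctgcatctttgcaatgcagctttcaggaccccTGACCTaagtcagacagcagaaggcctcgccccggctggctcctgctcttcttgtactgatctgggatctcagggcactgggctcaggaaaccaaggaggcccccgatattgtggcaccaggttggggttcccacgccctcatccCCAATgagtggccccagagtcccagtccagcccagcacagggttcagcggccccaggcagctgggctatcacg
Plin4: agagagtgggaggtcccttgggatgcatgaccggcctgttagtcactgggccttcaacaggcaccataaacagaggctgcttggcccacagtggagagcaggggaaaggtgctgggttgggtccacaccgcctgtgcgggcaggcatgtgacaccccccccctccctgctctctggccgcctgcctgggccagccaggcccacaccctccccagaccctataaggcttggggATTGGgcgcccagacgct

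The Plin2 window held the hexamer 218 to 213 bases upstream and a CCAAT box 73 to 69 bases upstream, and the Plin4 window held a CCAAT box 18 to 14 bases upstream and no such hexamer. Over the 14 windows that matched 9 of the 10 genes, with a window for each RefSeq start, AGGTCA was found in 3 (of Bscl2, Plin2 and Plin5) and in 14.0% of all 32851 windows, and CCAAT in 5 (of Bscl2, Plin2, Plin3, Plin4 and Plin5) and in 33.8% of all. The hypoxia response core ACGTG was found in 1 window, of Hilpda, and in 16.6% of all. The PPAR response element, a direct repeat of that hexamer with 1 base between, the E-box CACGTG, which contains ACGTG, and the FOXO site TGTTTAC were in none of the 14 windows, and were in 0.0335%, 6.02% and 3.17% of all windows. Both strands were searched. These matches describe letters within 250 bases of a start and no binding was measured.

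Plin5 and Cidea were hardly detected. Plin5 (chr17:56111601-56117596, minus strand, GRCm38) had 0 and 1 counts in the untreated libraries, 1 and 2 in those given A66, 0 and 3 in those given palmitate and 1 and 3 in those given both, which is at or under the 3 counts taken as detectable in every library, and it was not tested. Cidea (chr18:67343604-67367785, plus strand) had 5 and 24 counts in the untreated libraries, 7 and 9 in those given A66, 17 and 24 in those given palmitate and 5 and 17 in those given both. The untreated libraries alone spanned the counts of all the others. Cidea passed in no comparison, with log2 fold changes of 0.33 for palmitate (adjusted p = 0.877), -0.72 for palmitate plus A66 over palmitate (95% interval -1.99 to 0.55, adjusted p = 0.649), 0.45 over A66 (0.843) and -0.39 over untreated (0.794) and an interaction of 0.12 (0.990), and a difference within such intervals was not detectable at this depth. For A66 against untreated it did not reach the filter and was not tested. The 8 other genes of the 10 had at least 357 counts in every library.

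Plin4 (chr17:56100591-56109803, minus strand, ENSMUSG00000002831), the most abundant perilipin here, measured 1666 and 1606 CPM in the untreated libraries, 1442 and 1439 in those given A66, 1334 and 1535 in those given palmitate and 1250.2 and 1289 in those given both. Both untreated libraries stood above all others, both libraries with palmitate plus A66 stood below all others, and the palmitate libraries spanned those with A66. Its log2 fold change was -0.18 with A66 (SE 0.036), -0.19 with palmitate (SE 0.051), -0.18 for palmitate plus A66 over palmitate and -0.18 for palmitate plus A66 over A66. Plin4 shares 17 exonic bases with Hdgfl2 on the opposite strand, a gene at 49.7 to 56.0 CPM.

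Plin1 (chr7:79720218-79732903, minus strand, ENSMUSG00000030546) measured 468 and 474 CPM in the untreated libraries, 517 and 486 in those given A66, 428 and 486 in those given palmitate and 396 and 428 in those given both. Of the palmitate libraries, one lay beside those with A66, the highest, and the other beside those with palmitate plus A66, the lowest. Plin2 (chr4:86648386-86670060, minus strand, ENSMUSG00000028494) measured 209 and 226 CPM without treatment, 233 and 234 with A66, 242 and 248 with palmitate alone and 264 and 276 with both agents. The 4 groups of Plin2 did not overlap, and stood in the order untreated, A66, palmitate, palmitate plus A66. For Plin2 and the other droplet genes, such separation of groups of 2 libraries is a description. It was not tested, and how many of all genes separate in this way was not counted. Plin3 (chr17:56277476-56292873, minus strand, ENSMUSG00000024197), known as TIP47, measured 70.7 and 74.6 CPM in the untreated libraries, 73.8 and 78.2 in those given A66, 77.3 and 76.5 in those given palmitate and 82.1 and 80.3 in those given both. Only the libraries with palmitate plus A66 stood apart from all others for Plin3.

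Cidec (chr6:113424634-113435760, minus strand, ENSMUSG00000030278), also called Fsp27, measured 728 and 735 CPM in the untreated libraries, 715 and 653 in those given A66, 594 and 698 in those given palmitate and 519 and 580.1 in those given both. Fitm2 (chr2:163466379-163472629, minus strand, ENSMUSG00000048486) measured 232 and 231 CPM in the untreated libraries, 230.3 and 214 in those given A66, 201 and 212 in those given palmitate and 189 and 196 in those given both. For both genes the untreated libraries were the highest and those with palmitate plus A66 the lowest, with no overlap between these groups and the rest. Fitm2 shares 227 exonic bases with 2310001K24Rik on the opposite strand, a gene at no more than 0.277 CPM.

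Bscl2 (chr19:8837467-8848683, plus strand, ENSMUSG00000071657) measured 13.0 and 14.0 CPM in the untreated libraries, 11.6 and 12.6 in those given A66, 11.1 and 12.4 in those given palmitate and 11.4 and 12.4 in those given both. The untreated libraries were the highest and the 3 treated groups overlapped. Bscl2 shares 398 exonic bases with Gng3 on the opposite strand, a gene at no more than 0.236 CPM, and 239 with AC129217.1 on its own strand. AC129217.1 is not in the deposited count file, and how reads in the shared bases were counted is not given in the sources used here. Hilpda (chr6:29272488-29275446, plus strand, ENSMUSG00000043421) measured 8.41 and 9.23 CPM in the untreated libraries, 9.64 and 8.63 in those given A66, 8.32 and 8.75 in those given palmitate and 9.05 and 9.40 in those given both, and for this gene no group stood apart from all the others.

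**Figure D1:**
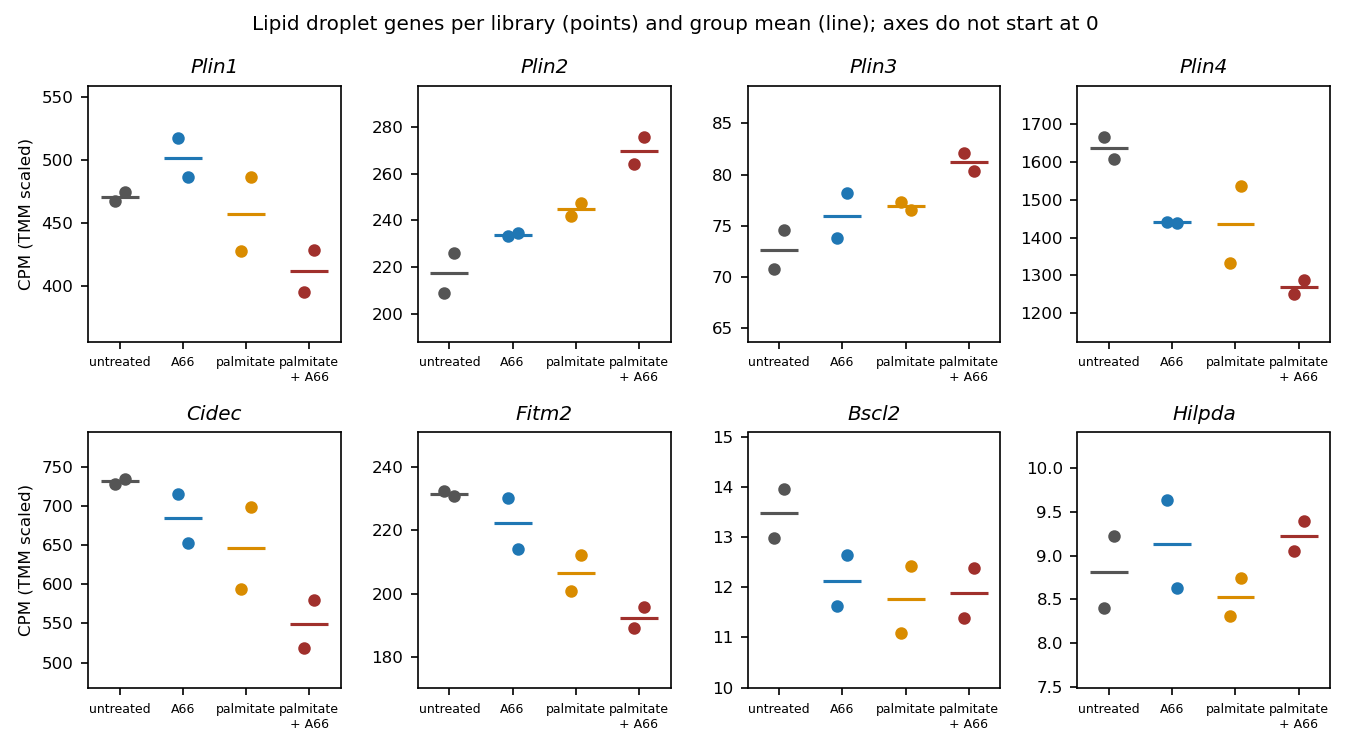
CPM of 8 droplet genes in each library (points) with the mean of each group of 2 libraries (line), on linear axes that do not start at 0. Plin2 and Plin3 are highest and Plin4, Cidec and Fitm2 are lowest with palmitate plus A66, while no group of Hilpda stands apart from all others.

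The first comparison, of A66 with untreated cells, asks how inhibition of p110α changed these messages. Plin4 fell by 0.18 on the log2 scale, a change of -11.8% (95% interval of the log2 fold change -0.26 to -0.11, adjusted p = 0.00743 in edgeR's quasi-likelihood test, after Benjamini and Hochberg over all genes tested). It was 1 of the 8 droplet genes tested that passed an adjusted p of 0.05, where 1.84% of all 14158 genes did. Plin4 no longer passed without either A66 library (adjusted p = 0.0759 without the first and 0.114 without the second) or with all 8 libraries in the fit (adjusted p = 0.0808). Over its 11 alternatives the adjusted p of Plin4 lay between 1e-05 and 0.114, and its log2 fold change between -0.20 and -0.15. Among the genes that did not pass, Plin2 had a log2 fold change of 0.11 (adjusted p = 0.262), Plin1 of 0.09 (0.300), Cidec of -0.09 (0.343), Bscl2 of -0.15 (0.523), Plin3 of 0.07 (0.631), Fitm2 of -0.06 (0.651) and Hilpda of 0.05 (0.897).

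Plin2 passed in this comparison in 1 alternative alone, without the second untreated library (log2 fold change 0.17, adjusted p = 0.00532). The median log2 fold change of the 8 genes was -0.0018 and that of all genes tested was -0.0011, and the median size of the difference, regardless of sign, was 0.093 for the 8 genes and 0.076 for all genes. The summed level of 8 adipocyte markers was 7642 to 7921 CPM in untreated cells and 8009 to 8462 with A66, where none of the 8 passed. Of 7 preadipocyte and fibroblast markers tested, 1 passed, Acta2, higher by 0.23, where 1.84% of all genes did. An unadjusted p under 0.05 with edgeR was found for 4 of the 7, and for 1813 of 14158 genes. Among the rest, the mean was higher for Pdgfra, Pdgfrb and Ly6a and lower for Thy1, Col1a1 and Cd34. The part of these differences in the values of the droplet genes was not tested.

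The second comparison, of palmitate with untreated cells, asks how a load of saturated fatty acid changed the droplet genes. None of the 9 genes tested passed an adjusted p of 0.05 in edgeR, where 1.17% of 14587 genes did, while 5 had an unadjusted p under 0.05, namely Plin2, Plin4, Fitm2, Cidec and Bscl2, as did 1753 of the 14587 genes. With DESeq2, 3 of them passed, Plin2, Plin4 and Fitm2, among 214 of all genes. The edgeR values closest to the threshold were those of Plin2, with a log2 fold change of 0.17 (95% interval 0.08 to 0.26, adjusted p = 0.0572), Plin4, with -0.19 (-0.29 to -0.08, adjusted p = 0.0758), and Fitm2, with -0.16 (-0.26 to -0.07, adjusted p = 0.0797).

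Cidec had a log2 fold change of -0.18 with palmitate (adjusted p = 0.189), Bscl2 of -0.20 (0.409), Plin3 of 0.08 (0.508), Plin1 of -0.04 (0.804) and Hilpda of -0.05 (0.896). The second palmitate library lay closer to the mean of untreated cells than the first for Plin1, Plin3, Plin4, Cidec, Bscl2, Fitm2 and Hilpda. For Plin2 the first palmitate library lay closer. With 1 library left out at a time, the log2 fold change ran from -0.29 to -0.092 for Plin4 and -0.30 to -0.067 for Cidec. For Fitm2 it ran from -0.20 to -0.12 and for Plin2 from 0.12 to 0.23. With the replicate number as a block Plin2 and Plin4 passed, with scaling by library size alone Plin4 and Fitm2 did, with at least 10 counts in every library Plin2 did, and with no filter on low counts Plin2, Plin4, Cidec and Fitm2 did. The median size of the difference was 0.17 for the 9 genes and 0.079 for all genes. None of the 8 adipocyte markers passed with palmitate (1 had an unadjusted p under 0.05 with edgeR). Of the 7 preadipocyte and fibroblast markers tested, 1 passed, Col1a1, higher by 0.25. Among the rest, the mean was higher for Pdgfra, Pdgfrb and Ly6a and lower for Acta2, Thy1 and Cd34. The part of these differences in the values of the droplet genes was not tested.

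Beside palmitate, A66 was compared in cells that also received palmitate. Cidec was the 1 of 9 genes that passed, where 2.81% of all genes did, and it fell by 0.23 on the log2 scale, a change of -15.0% (95% interval -0.36 to -0.11, edgeR adjusted p = 0.0373). The call was lost without the second palmitate library (log2 fold change -0.11), without the first library with palmitate plus A66, with the 2 groups alone in the fit (adjusted p = 0.0534) and with DESeq2 (adjusted p = 0.324), and over 15 alternatives the adjusted p lay between 3.7e-07 and 0.532. Plin4 had a log2 fold change of -0.18 (adjusted p = 0.0645), Plin2 of 0.14 (0.0917), Plin1 of -0.15 (0.149), Fitm2 of -0.10 (0.276), Plin3 of 0.08 (0.465), Hilpda of 0.11 (0.687) and Bscl2 of 0.02 (0.962). With the replicate block, Plin4 passed beside Cidec, and with DESeq2 it was Plin2 and Plin4 that passed. Without the first palmitate library, Plin1 and Plin4 passed beside Cidec, and with no filter on low counts Plin1, Plin2 and Plin4 did. Of the 8 adipocyte markers 1 was lower in this comparison, Retn, by 0.32, and their summed level was 7133 to 7731 CPM with palmitate. Col1a1 was lower by 0.33, Acta2 higher by 0.35 and the thermogenic marker Cox8b lower by 0.46, and the part of these in the fall of Cidec was not tested.

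Palmitate was likewise compared in cells that all received A66, and here 4 of the 9 genes passed, where 2.73% of all genes did. Plin1 fell by 0.28 on the log2 scale, a change of -17.9% (95% interval -0.39 to -0.18, edgeR adjusted p = 0.00234), Cidec fell by 0.32, a change of -19.7% (-0.44 to -0.19, adjusted p = 0.00351), and Fitm2 fell by 0.21, a change of -13.4% (-0.30 to -0.12, adjusted p = 0.00834). Plin2 rose by 0.21, or 15.4% (0.12 to 0.30, adjusted p = 0.00737).

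Plin4 had a log2 fold change of -0.18 in this comparison (adjusted p = 0.0565), and it passed with DESeq2, with no filter, with library size alone, with the 2 groups alone in the fit, with the replicate block, and without the first untreated or either palmitate library. Plin3 had a log2 fold change of 0.10 (adjusted p = 0.336), Bscl2 of -0.03 (0.938) and Hilpda of 0.01 (0.975). Without the first A66 library none of the 9 genes passed, without the second A66 library Plin2 did not, without the first library with palmitate plus A66 only Plin2 did, and without the second of these Plin2 did not. Cidec also missed the threshold with DESeq2 (adjusted p = 0.0735, within a range of 2.6e-13 to 0.149 over 15 alternatives). Adipocyte markers moved in this comparison too, with 4 of 8 lower, among them Retn (log2 fold change -0.32), Adipoq (-0.24) and Cfd (-0.27), and the summed level of the 8 markers was 8009 to 8462 CPM with A66 and 6954 to 7629 with palmitate plus A66. The thermogenic marker Cox8b was lower by 0.52 and the macrophage marker Cd68 higher by 0.91. In bulk RNA, fewer adipocytes and less of a message in each adipocyte cannot be told apart, and the part of these shifts in the changes of Plin1, Plin2, Cidec and Fitm2 was not tested.

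The comparison of palmitate plus A66 with untreated cells was added after the values had been seen, because the levels of several droplet genes were most extreme in the combined treatment. Its p-values and its alternatives, which use the same libraries, are therefore no independent support. Of the 9 genes, 6 passed, where 7.50% of all genes did (553 higher and 541 lower). Plin2 rose by 0.31 on the log2 scale, or 24.1% (95% interval 0.22 to 0.40, edgeR adjusted p = 5.6e-05), and Plin3 by 0.16, or 11.7% (0.06 to 0.25, adjusted p = 0.0363). Cidec fell by 0.41, a change of -24.8% (-0.54 to -0.29, adjusted p = 1.1e-04).

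Plin4 fell by 0.37, a change of -22.4% (-0.47 to -0.26, adjusted p = 5.3e-05), Fitm2 by 0.27, a change of -16.8% (-0.36 to -0.17, adjusted p = 4.3e-04), and Plin1 by 0.19, a change of -12.5% (-0.30 to -0.08, adjusted p = 0.0247). Plin2, Plin4, Cidec and Fitm2 passed in all 15 alternatives run, whereas Plin1 passed in 11 and Plin3 in 10. Plin1 was lost with DESeq2, without either untreated library and without the first library with palmitate plus A66, and Plin3 was lost with library size alone, with the 2 groups alone in the fit, without the first untreated library and without either library with palmitate plus A66. Their highest adjusted p over these alternatives was 0.307 and 0.272.

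Bscl2 had a log2 fold change of -0.18 with the combined treatment (95% interval -0.38 to 0.02, adjusted p = 0.295) and Hilpda of 0.06 (-0.16 to 0.28, adjusted p = 0.803). After Cidea, these are the least abundant of the tested genes, at 357 to 755 counts in a library. Against untreated cells 2 of the 8 adipocyte markers were lower, Retn by 0.40 on the log2 scale and Lipe, which is also on the list of lipases below, by 0.19, and the summed level of the 8 had been 7642 to 7921 CPM in untreated cells, above both libraries with palmitate plus A66. Of the markers of other cells, Cd68 was higher by 0.88 and Ly6a by 0.41, and Cox8b was lower by 0.46. These were the ones that passed, of 2 macrophage, 7 preadipocyte and fibroblast and 3 thermogenic markers tested. The median of those 7 was 0.026, with lower means for Col1a1, Pdgfrb and Thy1 and higher ones for Pdgfra, Cd34 and Acta2. Csf1r, the other macrophage marker tested, had a lower mean than in untreated cells. The part of these differences in the values of the droplet genes was not tested. Mitochondrial transcripts took 10.5% to 10.9% of the counts in untreated libraries and 11.4% and 11.8% in those with palmitate plus A66.

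With scaling by library size alone, 29.9% rather than 50.5% of the genes called in this comparison were higher, 40.4% rather than 53.5% for palmitate plus A66 over A66, 23.4% rather than 34.6% for palmitate plus A66 over palmitate, 45.0% rather than 58.2% for A66 over untreated and 44.1% rather than 53.8% for palmitate over untreated. Under this scaling, no droplet gene that passed in any comparison changed direction.

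**Figure D2:**
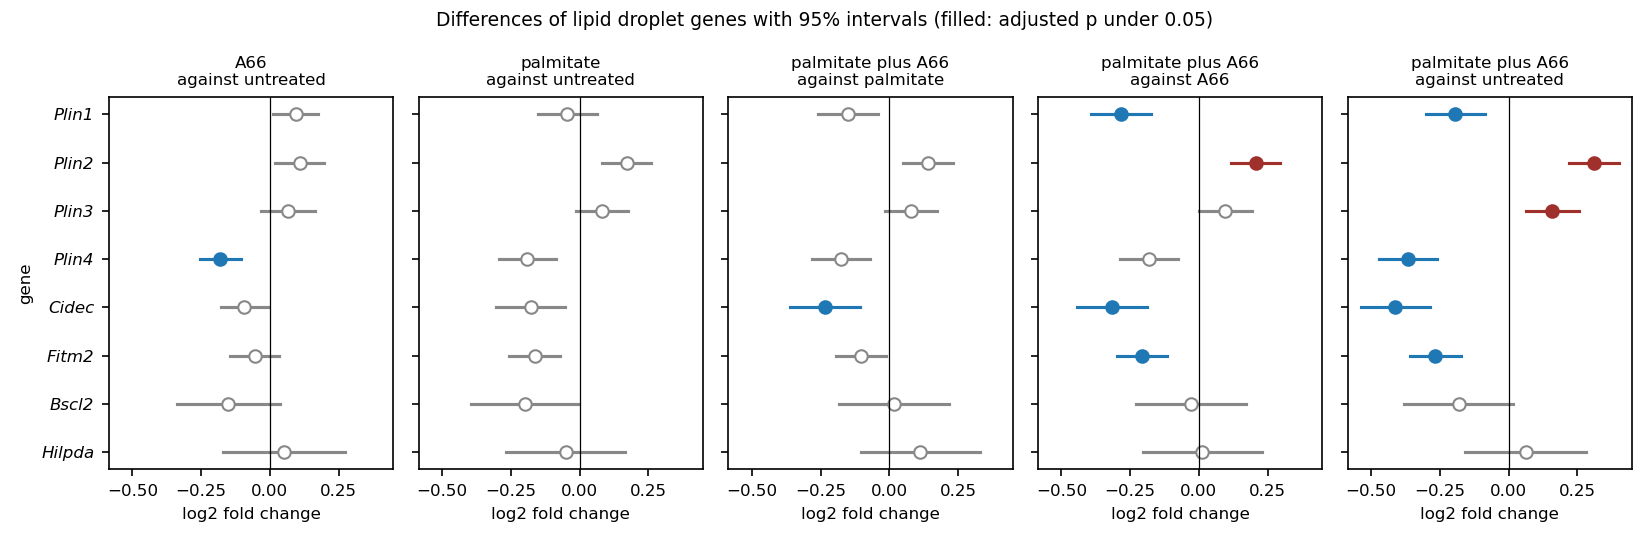
Log2 fold change (horizontal axis) of 8 droplet genes with its 95% interval in 5 comparisons, filled where the adjusted p was under 0.05, in red for higher and blue for lower. In palmitate plus A66 against untreated, 6 genes are filled, and Plin2 (0.31) and Cidec (-0.41) are the outermost. That comparison was added after the values were seen.

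The interaction of A66 with palmitate asks whether the difference made by A66 depended on palmitate. None of the 9 genes passed with edgeR, where 0.00686% of all genes (1 gene) did, and none passed with DESeq2, while 1 gene, Plin1, had an unadjusted p under 0.05 (0.00368, adjusted p = 0.411), as did 1155 of the 14587 genes. Plin1 had a log2 fold change of 0.09 with A66 in cells without palmitate and of -0.15 in cells with it, an interaction of -0.24 (95% interval -0.39 to -0.09). With 1 library left out at a time, these values ran from 0.049 to 0.14, from -0.24 to -0.053 and from -0.33 to -0.15. With no filter on low counts the interaction of Plin1 passed (adjusted p = 0.00782), the lowest of its 14 alternatives, which reached 0.887. For Plin4 the interaction was 0.0074 (-0.14 to 0.16), for Plin2 0.04 (-0.09 to 0.16), for Plin3 0.02 (-0.12 to 0.15), for Fitm2 -0.04 (-0.17 to 0.09) and for Cidec -0.14 (-0.32 to 0.04). For Bscl2 it was 0.17 (-0.11 to 0.45) and for Hilpda 0.06 (-0.24 to 0.37), and an interaction within such bounds was not detectable with 2 libraries a group. The comparisons share libraries and are not independent of each other.

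The perilipins were also described as parts of their own sum, each in CPM per kilobase, as a description with no test. The sum was 467 and 464 CPM per kb in untreated libraries, 447 and 441 in those given A66, 412 and 461 in those given palmitate and 398 and 415 in those given both. Plin4 made up 61.7% and 59.9% of it in untreated cells and 54.3% and 53.8% with palmitate plus A66, with values from 55.9% to 57.6% in the groups between. The share of Plin2 was 12.7% and 13.9% in untreated cells, 14.9% and 15.1% after A66, 16.7% and 15.3% after palmitate and 18.9% in both libraries of the combined treatment.

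Plin3 made up 4.00% and 4.25% in untreated cells and 5.44% and 5.11% with palmitate plus A66. Plin1, by contrast, kept a similar share in untreated cells, at 21.5% and 22.0%, and with palmitate plus A66, at 21.4% and 22.2%, and was highest with A66 alone, at 24.9% and 23.7%. The lower sum in the combined treatment came with a smaller share of Plin4 and larger shares of Plin2 and Plin3.

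**Figure D3:**
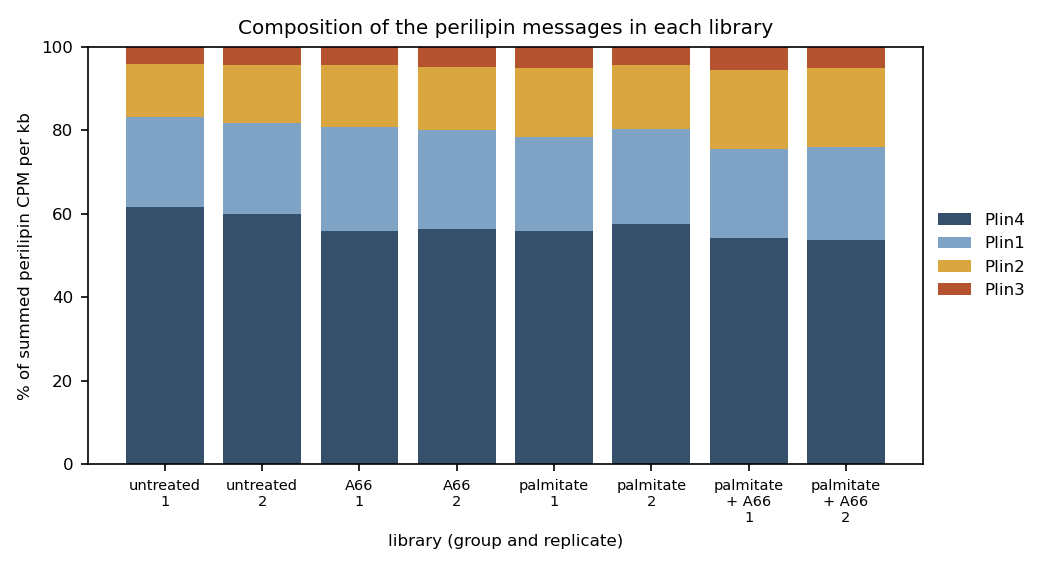
Share of each perilipin in the summed perilipin level (CPM per kilobase of exon, in %) in each of the 8 libraries, with Plin5 too low to be drawn. Plin4 falls from 61.7% and 59.9% in untreated libraries to 54.3% and 53.8% with palmitate plus A66, and Plin2 makes up 18.9% in both of the latter.

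Across the 8 libraries, which share their groups, log2 levels of Cidec went with those of Fitm2 (Pearson r = 0.960), Plin4 (0.927) and Plin1 (0.887), and those of Plin2 with Plin3 (0.905). Plin3 ran against Fitm2 (-0.921), Cidec (-0.883) and Plin4 (-0.876), and Plin2 against Fitm2 (-0.875) and Plin4 (-0.856). The correlations of Hilpda reached no more than 0.369, with Plin2. These are descriptions over 8 points that fall into 4 groups. The genes with the widest range of group means were Cidea, at 0.84 on the log2 scale, whose counts are too few to compare patterns by, and Cidec, at 0.41. Among 8949 other genes whose mean was 10 CPM or more, the patterns most like that of Cidec over the 8 libraries were those of Marveld1 (r = 0.990), Klb (0.989) and Dgat2 (0.987), the last an enzyme of the final step of triglyceride synthesis.

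Other genes of the droplet were read from lists written with earlier results of these data known. Of 6 droplet lipases and their regulators, none passed as higher in any comparison. None passed with A66 alone, where the smallest p values belonged to Abhd5 (log2 fold change -0.15, adjusted p = 0.0559) and Pnpla3 (-0.29, adjusted p = 0.0740), and 3 of the 6 had an unadjusted p under 0.05 with edgeR, as did 1813 of the 14158 genes. With palmitate, where 1.17% of all genes passed, 1 did, Pnpla2, the gene of the lipase ATGL, which fell by 0.25 (adjusted p = 0.0164).

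For palmitate plus A66 over palmitate, 3 of the 6 were lower, where 2.81% of all genes passed, Abhd5, the co-activator of ATGL, by 0.25 (adjusted p = 0.00102), G0s2, an inhibitor of ATGL, by 0.25 (adjusted p = 0.00929) and Pnpla3 by 0.43 (adjusted p = 0.0215). For palmitate plus A66 over A66, 4 of the 6 were lower, where 2.73% of all genes passed, among them Pnpla2 by 0.25, Abhd5 by 0.18 and Lipe, the hormone-sensitive lipase, by 0.21. Against untreated cells 5 of the 6 were lower with palmitate plus A66, where 7.50% of all genes passed, among them Pnpla3 by 0.55, Pnpla2 by 0.38 and Abhd5 by 0.34. The list thus held both the lipase ATGL and genes that activate or inhibit it among those that fell, and its median log2 fold change against untreated cells was -0.30, beside -0.0011 for all genes.

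Of 7 genes of the last steps of triglyceride synthesis, none passed with A66 (2 had an unadjusted p under 0.05 with edgeR, as did 1813 of all 14158 genes, Lpin1, at -0.17 with an adjusted p of 0.0551, and Dgat2, at -0.11 with 0.295), 1 was lower with palmitate, the acyltransferase gene Gpam, by 0.19 (adjusted p = 0.0320), and 1 was lower for palmitate plus A66 over palmitate, Gpat3, by 0.19 (adjusted p = 0.0165), in comparisons in which 1.17% and 2.81% of all genes passed. Against A66, Gpat3 was lower by 0.20 and Dgat2 by 0.25 with palmitate plus A66, and against untreated cells, where 7.50% of all genes passed, 4 of the 7 were lower, among them Dgat2 by 0.37, Gpat3 by 0.25 and Lpin1 by 0.28.

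Of 19 other droplet proteins, 17 were tested, and their median log2 fold change for palmitate plus A66 over untreated was -0.0041, with 2 higher (Acsl3 and Vim) and 1 lower (Cav1) where 7.50% of all genes passed. In the other comparisons 2 were higher with A66 (1.84% of all genes passed), 1 was higher with palmitate (1.17%), 1 was lower for palmitate plus A66 over palmitate (2.81%), and 1 was higher and 1 lower over A66 (2.73%). Acsl3, an acyl-CoA synthetase of nascent droplets, was higher with palmitate by 0.27 (adjusted p = 0.00124), and with palmitate plus A66 by 0.43 over A66 and by 0.30 over untreated. Tmem159, which encodes a partner of seipin, was higher with A66 by 0.30 (adjusted p = 0.0320), as was the filament gene Vim by 0.19 (adjusted p = 0.00820), and by 0.24 with palmitate plus A66 over untreated. Cav1, the gene of caveolin-1, was lower with palmitate plus A66 by 0.22 over palmitate and by 0.24 over untreated, and Cavin1 was lower by 0.18 over A66.

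**Figure D4:**
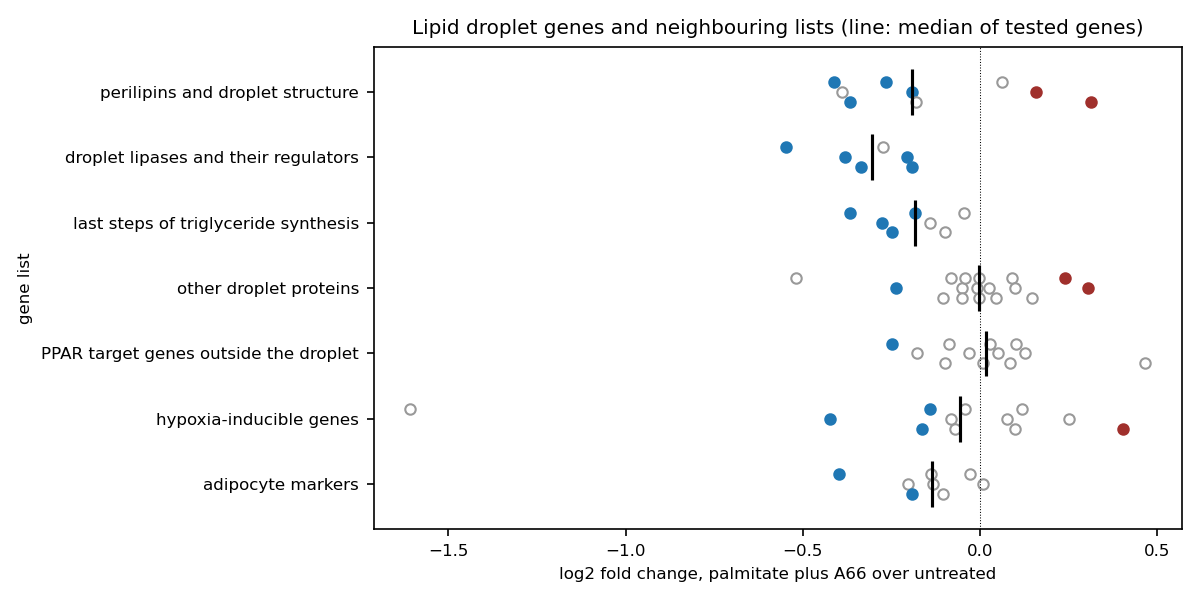
Log2 fold change for palmitate plus A66 over untreated (horizontal axis) of each tested gene in 7 lists, filled where the adjusted p was under 0.05 (red higher, blue lower), with the median of each list as a line. This comparison was added after the values were seen. Droplet lipases and their regulators have a median of -0.30 and 5 of 6 filled, while the medians of other droplet proteins (-0.0041) and of PPAR targets outside the droplet (0.018) lie near 0, with single genes on both sides.

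PPAR target genes outside the droplet, 12 in all, were set beside the droplet genes that PPARs are known to induce. With edgeR none passed with A66, with palmitate, or for palmitate plus A66 over palmitate or over A66, and 3, 1, 2 and 3 of the 12 had an unadjusted p under 0.05 in these comparisons, as did 1813 of 14158 genes and 1753, 2101 and 2123 of 14587. Against untreated cells, where 7.50% of all genes passed, 1 was lower with palmitate plus A66, Acadm, an enzyme of fatty acid oxidation, by 0.25 (adjusted p = 0.00152). The medians of this list lay between -0.059 and 0.018 over the 6 comparisons. Hypoxia-inducible genes, 12 in all, were set beside Hilpda. None passed with A66 or for palmitate plus A66 over A66, where 3 and 2 of the 12 had an unadjusted p under 0.05 with edgeR, as did 1813 of 14158 and 2123 of 14587 genes. With palmitate (1.17% of all genes passed) P4ha1 was higher by 0.20 and Vegfa lower by 0.19, with palmitate plus A66 over palmitate (2.81%) Adm was higher by 0.37 and Ndrg1 by 0.40, and against untreated cells (7.50%) 1 was higher (Ndrg1, by 0.40) and 3 were lower, among them Egln3 by 0.42 and Ldha by 0.16.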

How the data were processed

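RNA of 8 samples had been selected on oligo(dT) and sequenced with a stranded kit. Per the labels and the study's methods, the authors aligned reads to GRCm38 with TopHat2 2.0.11 and counted them with HTSeq, and the values they deposited are raw counts for each Ensembl gene, not normalized. The annotation release and the strand setting of the counting are not given in the sources used here. Columns of the authors' own DESeq2 comparison in the same file (mean of normalized counts, fold change, its error, test statistic and p-values) were not used. Of 43629 genes, 42462 matched GENCODE M21, which gave symbols, positions and exon lengths. Counts were tested in R 4.3.3 with edgeR 4.0.16 (TMM scaling, filterByExpr with a minimum count of 10, quasi-likelihood test, two-sided, Benjamini-Hochberg adjustment over all genes tested). A66 against untreated was fitted on the 4 libraries that had no palmitate, and every other comparison in a fit of all 8 libraries. SDs and intervals rest on 2 libraries a group, intervals are at 95%, and the 3-count floor covers counting error only. The code was tested on simulated data. The genes and lists were chosen with earlier results of these data known. All genes of the 10 that were tested are named in every comparison, and from each list at most 3 genes with the smallest p among those past 0.05, or 2 where none passed, not all of which are printed. Alternatives were RLE scaling, library size alone, DESeq2 1.42.0, a low-count filter of 10 in each library or none, more or fewer libraries in the fit, a block for the replicate number, and leaving out each library. Those for palmitate plus A66 against untreated were chosen after seeing the data, with the comparison itself. Promoter windows come from RefSeq on GRCm38.p6. Cidea matched none. Likeness was Pearson's r of log2(CPM + 0.5).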

Additional observations from a re-analysis of the deposited data

How the results depend on the processing

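Of 748 values of single droplet genes under the alternatives, 654 kept their direction and their side of the threshold, 26 lost a call, 35 gained one and 33 changed sign. The cause of these changes was not tested. For A66 against untreated, the number of droplet genes called (1) was 0 with all 8 libraries in the fit (209 genes), and the number of all genes called (261) was 459 with no filter. For palmitate (0 droplet genes, 171 genes) the numbers were 2 with library size alone (188 genes), 3 with DESeq2 (214), 4 with no filter (396), 1 with at least 10 counts in every library (181) and 2 with the replicate block (195). For palmitate plus A66 over palmitate (1 and 410) they were 2 with library size alone (457 genes), 2 with DESeq2 (436), 4 with no filter (652), 0 with the 2 groups alone (376) and 2 with the replicate block (448). For palmitate plus A66 over A66 (398 genes) all genes called came to 664 with no filter and 689 with the 2 groups alone. For the interaction (0 and 1) 1 droplet gene and 91 genes passed with no filter, 2 genes with library size alone, 21 with DESeq2 and 3 with the replicate block.

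Leaving out each library in turn gave 0 to 2 droplet genes and 98 to 635 genes for A66, 0 to 3 and 71 to 245 for palmitate, 0 to 3 and 147 to 494 for palmitate plus A66 over palmitate, 0 to 5 and 107 to 502 for palmitate plus A66 over A66, 0 droplet genes and 0 to 10 genes for the interaction, and 4 to 6 and 437 to 1236 for palmitate plus A66 over untreated. The number of all genes moved by over 1.5 times without any of the 4 libraries for A66, without the first untreated or first palmitate library for palmitate, without the second palmitate or either palmitate plus A66 library for palmitate plus A66 over palmitate, without the first A66 or first palmitate plus A66 library for palmitate plus A66 over A66, and without the first untreated or either palmitate plus A66 library for palmitate plus A66 over untreated. Where a group then held 1 library, its spread was taken to be that of the others.

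No difference that passed for a droplet gene changed sign in any alternative. With library size alone, Bscl2 for palmitate plus A66 over palmitate became -0.0016 and Hilpda for palmitate plus A66 over A66 -0.0038. In the interaction, Plin4 became -0.0027 with no filter and Cidea -0.094 with the replicate block. Without 1 library each, Hilpda ran from -0.031 to 0.13 (A66), -0.11 to 0.021 (palmitate), -0.064 to 0.096 (palmitate plus A66 over A66), -0.012 to 0.14 (interaction) and -0.0015 to 0.13 (palmitate plus A66 over untreated). Cidea ran from -0.26 to 1.63 (palmitate), -0.65 to 1.06 (palmitate plus A66 over A66), -1.18 to 0.72 (interaction) and -1.48 to 0.91 (palmitate plus A66 over untreated). Bscl2 ran from -0.062 to 0.10 over palmitate and -0.090 to 0.032 over A66, and Plin1 with palmitate from -0.14 to 0.045. In the interaction Plin2 ran from -0.023 to 0.091, Plin3 from -0.029 to 0.056, Plin4 from -0.091 to 0.11 and Fitm2 from -0.095 to 0.0074.

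Samples that share a replicate number did not deviate together, with correlations over 11957 genes between -0.094 and 0.119 across the pairs of groups, and no source says that a number marks a shared culture, so the block pairs samples by number alone. Depth limits Plin5 and Cidea, and 2 libraries a group limit every interval.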

Other observations

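Markers of other cells are gathered here, and many of their values were also given with the comparisons above. Cd68, a lysosomal protein gene used as a macrophage marker and also made by other cells, was higher with palmitate plus A66 by 0.91 on the log2 scale over A66 (edgeR adjusted p = 0.00140) and by 0.88 over untreated (adjusted p = 0.00103), while Adgre1 had no count and Ptprc had 1 count over all 8 libraries. The summed level of the 4 macrophage markers was 2.76 to 3.70 CPM in untreated cells, 2.90 to 3.41 with A66, 3.99 to 4.36 with palmitate and 5.65 to 5.94 with palmitate plus A66, and Cd68 made up nearly all of it. Csf1r, the other macrophage marker tested, had 6 to 15 counts in a library and passed in no comparison, with a log2 fold change of 0.30 for palmitate plus A66 over A66 (adjusted p = 0.886) and -0.08 over untreated (0.961). Of 7 preadipocyte and fibroblast markers tested, Col1a1 was higher with palmitate by 0.25 and lower for palmitate plus A66 over palmitate by 0.33, Acta2 was higher with A66 by 0.23 and for palmitate plus A66 over palmitate by 0.35, and Ly6a was higher for palmitate plus A66 over untreated by 0.41. The summed level of these markers was 1263 to 1291 CPM with palmitate, and between 1142 and 1202 CPM in the other groups. Of 7 markers of brown or thermogenic fat, 4 had at most 3 counts in every library, and Cox8b was lower with palmitate plus A66 in all 3 comparisons made, by 0.46 over palmitate, 0.52 over A66 and 0.46 over untreated. Of 4 muscle markers only Des was tested, at 40.7 to 50.4 CPM, and it passed in no comparison with edgeR, with an unadjusted p under 0.05 for A66 and for palmitate plus A66, each against untreated.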
